A study of Mus musculus with 12 samples.

Results

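Formins are proteins that start new actin filaments and stay on the growing end while they add subunits to it, so that they build long, unbranched filaments, whereas the Arp2/3 complex builds branched ones. Most of them are held inactive by a fold of the protein on itself until a signal opens it. In the cochlea such filaments fill the stereocilia and the cuticular plate of the hair cells and brace the pillar cells, and variants of DIAPH1 and DIAPH3 are known in hereditary deafness. The 10 formin genes described here were chosen by symbol as members of this family. They are Diap1, Diap2 and Diap3 (the file's symbols for Diaph1, Diaph2 and Diaph3), Daam1, Daam2, Fmnl1, Fmnl2, Fmnl3, Inf2 and Fhod3. These are 10 of the 28686 gene symbols in the counts, and all 10 were among the 18459 genes that averaged 5 or more counts per library and were tested.

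RNA-seq was performed on total RNA of the cochlea at postnatal day 6 from 6 Sox2CreER/+Jag1fl/fl mutants, which the labels write as Sox2CreER;Jag1-/-, and 6 Sox2+/+ littermate controls, on a mixed C57BL/6 and 129SV background by the labels. The study's methods instead give C57BL/6J for the CreER line and FVB/n for the floxed Jag1 line. All of the pups, controls included, received tamoxifen at P0 and P1. In the mutants the Sox2 locus drives CreER, a recombinase that tamoxifen switches on, in the supporting cells, where it cuts the floxed exons out of Jag1, the gene of a Notch ligand. The controls carried floxed Jag1 on at least 1 allele by the study's methods but no CreER, so that the genotypes differed in 1 copy of Sox2 as well as in Jag1. Each library was 1 mouse, and between 28498549 and 36134983 reads per library were counted on genes. The unit is CPM throughout, that is, counts of a gene per 1000000 counts of its library after TMM scaling. Jag1 was between 83.0 and 117.6 CPM in controls and between 24.2 and 42.9 CPM in mutants. All 11 hair cell markers and all 10 supporting cell markers that were looked up passed the filter on low counts, as did all 9 mesenchyme markers, whose summed level of 22032 to 30059 CPM over the 12 libraries exceeded the 2669 to 3759 CPM of the supporting cell markers. The RNA therefore came from a mixed tissue, in which more cells of a type and more RNA per cell cannot be told apart.

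In edgeR's quasi-likelihood test of mutants against controls, 35 of 18459 genes, or 0.190%, had an adjusted p under 0.05, and none of the 10 formins was among them. By DESeq2 on the same counts 619 genes, or 3.35%, passed, and 1 formin, Diap3, was among them. At an unadjusted p under 0.05, 1204 genes (6.52%) were higher and 745 (4.04%) were lower in mutants by edgeR. Of the 10 formins, 1 was higher at that level, Diap3, and 0 were lower. The log2 fold change was positive for 7 of the 10 formins and for 50.9% of all genes tested, and its median was 0.053 over the formins and 0.0029 over all genes. Summed over the 10 genes, the formins averaged 637 CPM in controls (SD 26.4) and 639 CPM in mutants (SD 39.8), with 6 libraries each. Diap3 made up 0.432% of that sum in controls, and Fmnl2 made up 25.8%.

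**Figure D1:**
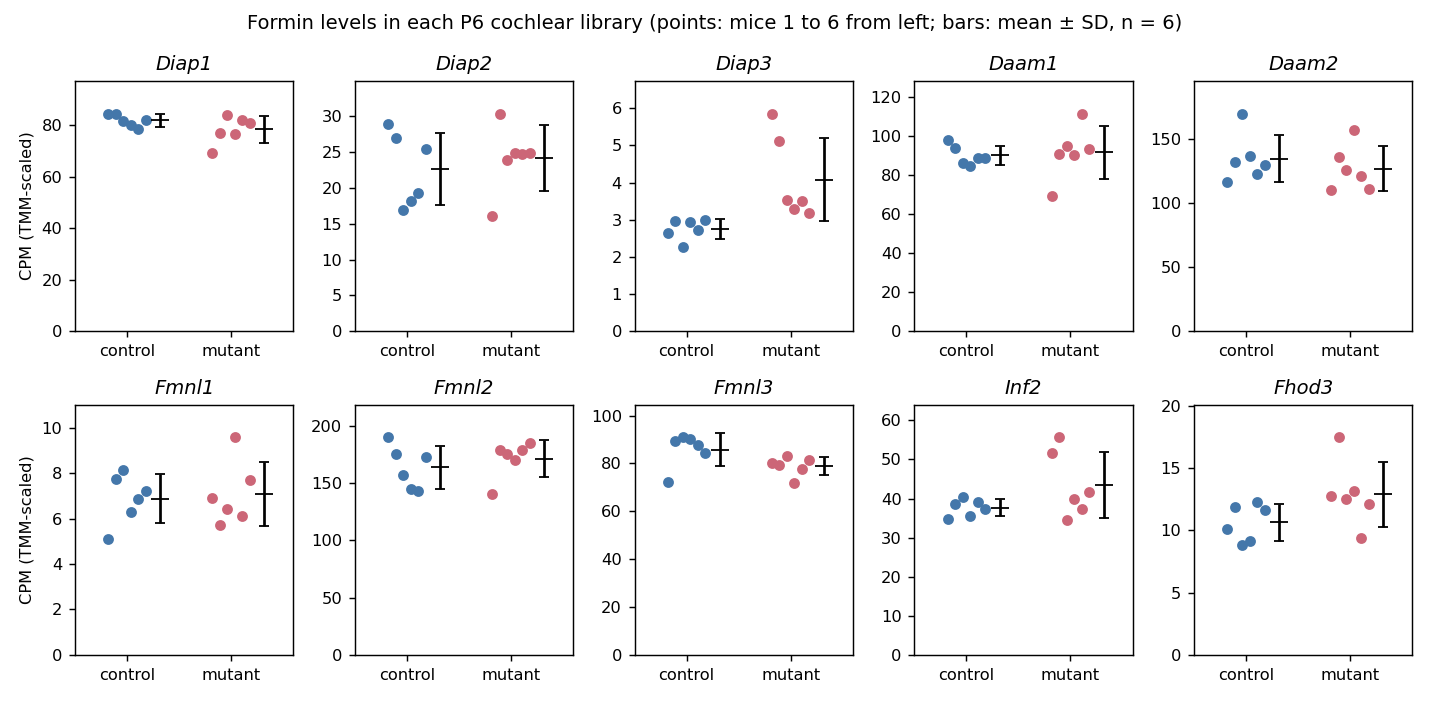
CPM of the 10 formins in each library, 1 panel per gene, with the y axis from 0; the points are the mice 1 to 6 of each genotype from left to right and the bars are the mean ± SD (n = 6). For Diap3 all 6 mutants lay above the highest control, and for the other 9 genes the genotypes overlapped.

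Levels of different genes were compared per kilobase of the longest coding transcript in GENCODE M21. On this scale the controls held Daam2 at 36.9 ± 5.09 CPM per kb and Fmnl2 at 29.8 ± 3.38 CPM per kb (SD, n = 6), with ranges that overlapped. Fmnl3 (19.4), Daam1 (15.3) and Diap1 (14.2 CPM per kb) followed, each overlapping its neighbour in this order. Inf2 at 9.41 ± 0.53 CPM per kb stood apart from those above and below it. Diap2 (2.68), Fhod3 (1.97) and Fmnl1 (1.80 CPM per kb) overlapped one another in that order, and Diap3 was the lowest, at 0.60 ± 0.06 CPM per kb, below every control value of Fmnl1. The order of the means was the same in the mutants, where Diap3 reached 0.89 ± 0.25 CPM per kb and remained below every mutant value of Fmnl1. Per kilobase of all merged exons, a length added after the data were seen, Daam2 moved from the first to the third place at 13.8 CPM per kb, because its merged exons span 9769 bases and its longest coding transcript 3646. On that scale Fmnl2 led at 29.1 CPM per kb, Diap1 passed Daam1, and the order of the lowest 5 genes did not change.

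**Figure D2:**
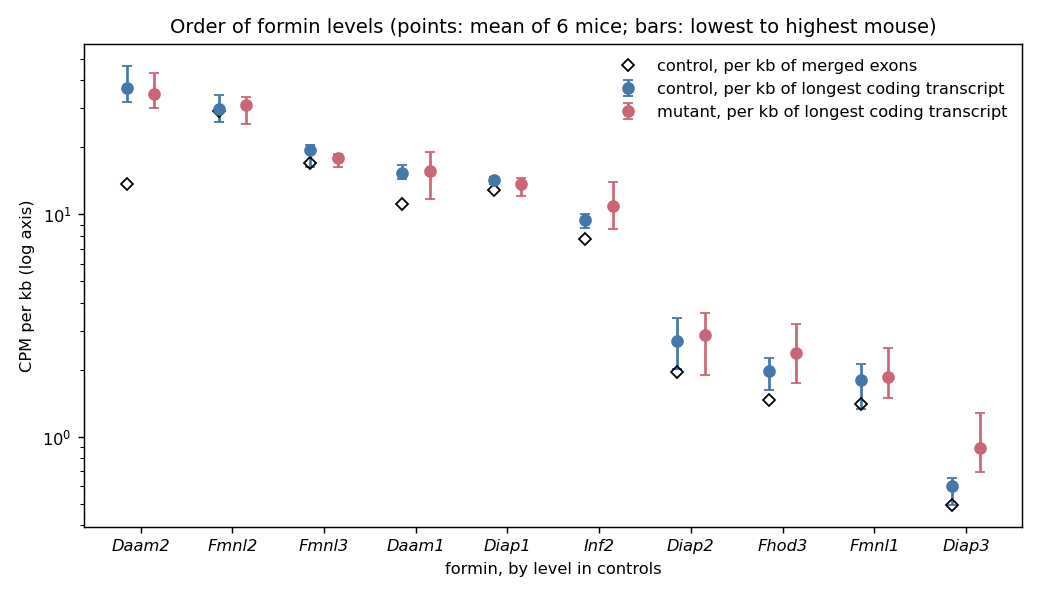
Level of each formin in CPM per kb on a log axis, ordered by the controls; filled points are the mean of 6 mice of a genotype, bars run from the lowest to the highest mouse, and open diamonds give the control mean per kb of merged exons. The genes spread from 0.60 to 36.9 CPM per kb in controls, and Daam2 is the gene whose place depends most on the length used.

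The Diaphanous formins share this folded, inactive form. Diap3 (chr14:86655367-87141235 on GRCm38, minus strand) was at 2.64, 2.97, 2.27, 2.93, 2.72 and 2.99 CPM in controls 1 to 6. The values of mutants 1 to 6 were 5.85, 5.12, 3.53, 3.30, 3.50 and 3.17 CPM. All 6 mutants lay above the highest control, but mutants 1 and 2 stood well above the other 4. Such a complete separation with the mutants higher occurred in 114 of the genes tested (0.618%), and with the mutants lower in 70 (0.379%). The log2 fold change of Diap3 was 0.57 (SE 0.17, edgeR adjusted p = 0.142), a 1.48-fold higher level. The exact permutation test gave the smallest p that 6 mice against 6 allow (two-sided, unadjusted p = 0.00216). Any complete separation gives this p, so that it adds nothing to the separation itself. Diap3 is the least counted of the 10 genes, with 66 to 103 reads per control library and 107 to 191 per mutant library. Its log2 fold change was 0.29 (edgeR adjusted p = 0.466) with mutants 1 and 2 left out together, an alternative added after the data were seen, and since these are its 2 highest libraries their removal had to lower the fold. It was 0.20 (SE 0.24, edgeR adjusted p = 1) with the neuron and Schwann cell marker scores in the model. Both scores were themselves higher in mutants, so that this model separates them poorly from the genotype. Whether the lower fold reflects cell content was not tested.

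Since Diap3 was the member that separated the genotypes, the 250 bases before its RefSeq start are shown beside those of Inf2, which carry a match to the core word of RBPJ, the DNA-binding partner of the Notch receptors. The words searched on both strands were TGGGAA for RBPJ, TTTGGCGC and TTTCCCGC for E2F factors, and the CArG box of SRF. The capitals mark a match, here to TGGGAA on the minus strand.
Diap3 promoter, chr14:87141225-87141474, minus strand: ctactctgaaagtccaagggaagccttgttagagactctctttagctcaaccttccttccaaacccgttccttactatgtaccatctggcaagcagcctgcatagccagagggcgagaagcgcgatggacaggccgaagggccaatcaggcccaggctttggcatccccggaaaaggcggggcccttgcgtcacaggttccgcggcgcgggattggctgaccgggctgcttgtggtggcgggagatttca
Inf2 promoter, chr12:112588517-112588766, plus strand: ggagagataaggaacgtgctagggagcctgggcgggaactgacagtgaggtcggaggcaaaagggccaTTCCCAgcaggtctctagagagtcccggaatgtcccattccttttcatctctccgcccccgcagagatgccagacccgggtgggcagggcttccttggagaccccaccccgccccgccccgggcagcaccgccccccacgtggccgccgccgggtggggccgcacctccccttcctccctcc
The Diap3 window held none of these words. Among the 11 RefSeq promoters of the 8 formins searched (Daam1, Daam2 and Inf2 have 2 each), 5 held TGGGAA, namely both of Inf2, both of Daam2 and that of Fmnl3, against 21.6% of 32851 promoters of the same length. The 2 windows of Inf2, like those of Daam2, overlap and hold the same match. None of the 11 held an E2F word or a CArG box, which occur in 0.417%, 0.895% and 1.47% of all promoters. A match is a run of letters and not a shown binding site.

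Diap1 (chromosome 18), the founding mammalian Diaphanous formin, was the steadiest member in controls, where it lay between 78.4 and 84.4 CPM with a median of 81.8. In mutants it lay between 69.2 and 84.0 CPM with a median of 79.0, and 3 of the 6 were below the lowest control. Its promoter and that of Fhod3 were not analysed here. The log2 fold change of Diap1 was -0.063 (SE 0.055, edgeR adjusted p = 0.807). Diap2 (chrX:129749742-130465834, plus strand) varied more, from 17.0 to 28.9 CPM (median 22.4) in controls and from 16.1 to 30.4 CPM (median 24.8) in mutants. Its genotypes overlapped over nearly their whole range, and a fold between 0.86 and 1.32 lies within 2 SE of the estimate.

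The Daam formins bind Dishevelled and act downstream of Wnt signals in planar cell polarity. Daam1 (chr12:71831078-71992333, plus strand) lay between 84.9 and 98.0 CPM in controls, with a median of 88.8. The mutants ran from 69.1 CPM in mutant 1 to 111.5 CPM in mutant 5, with a median of 92.2, so that they extended past the controls at both ends. Its CV was 5.49% in controls and 14.8% in mutants, and its log2 fold change was 0.027 (SE 0.089, edgeR adjusted p = 0.967). Daam2 (chr17:49456022-49564343, minus strand) lay between 116 and 169 CPM (median 131) in controls and between 110 and 157 CPM (median 123) in mutants. Its log2 fold change was -0.085 (SE 0.10, edgeR adjusted p = 0.874).

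The Fmnl formins act in lamellipodia and filopodia, and Fmnl1 is known mainly from white blood cells. Fmnl2 (chr2:52857860-53133804, plus strand), the member with the highest CPM, lay between 143 and 190 CPM (median 165) in controls. In mutants it lay between 140 and 185 CPM (median 177), with mutant 1 far below the other 5, which were at 171 CPM or more, and its log2 fold change was 0.065 (SE 0.084, edgeR adjusted p = 0.887). Fmnl3 (chr15:99317225-99370482, minus strand) was at 72.3 CPM in control 1 and between 84.3 and 90.9 CPM in the other 5 controls. The mutants lay between 71.9 and 82.9 CPM, all of them below the control median of 88.5. The log2 fold change of Fmnl3 was -0.12 (SE 0.063, edgeR adjusted p = 0.563). Without control 1, the only control that overlapped the mutants, it was -0.17 (edgeR adjusted p = 0.215). Control 1 is also the lowest control, so that its removal had to make the fold more negative. Without mutant 4, the lowest mutant, the fold change of Fmnl3 moved the other way, to -0.093 (edgeR adjusted p = 0.789), which that choice likewise fixed. Fmnl1 (chr11:103171107-103198901, plus strand) lay between 5.10 and 8.15 CPM (median 7.02) in controls and between 5.73 and 9.58 CPM (median 6.68) in mutants, with a log2 fold change of 0.040 (SE 0.14, edgeR adjusted p = 0.969). Fmnl1 shares 120 exon bases with the antisense gene Gm20511, and since the strand setting of the counting is not given in the sources used here, reads of these bases cannot be assigned to either gene with certainty.

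Inf2, which both builds and severs filaments, and Fhod3, known from the sarcomeres of the heart, had positive log2 fold changes that did not pass the test. Inf2 (chr12:112588784-112615557, plus strand) lay between 34.8 and 40.3 CPM in controls, with a median of 38.0. Mutant 1 reached 51.6 CPM and mutant 2 reached 55.6 CPM, whereas the remaining 4 lay between 34.4 and 41.8 CPM, so that only the first pair stood well clear of the controls. The log2 fold change of Inf2 was 0.21 (SE 0.11, edgeR adjusted p = 0.544), and it was 0.026 (adjusted p = 0.927) without mutants 1 and 2, which are again its 2 highest libraries, so that the drop was fixed by the choice. Fhod3 (chromosome 18) lay between 8.80 and 12.3 CPM (median 10.9) in controls and between 9.40 and 17.5 CPM (median 12.6) in mutants. Mutant 2 was its highest library, and 4 of the 6 mutants exceeded the highest control. The log2 fold change of Fhod3 was 0.28 (SE 0.13, edgeR adjusted p = 0.490) and 0.15 (adjusted p = 0.745) without mutants 1 and 2. Since mutant 2 is the highest library of Fhod3, leaving that mouse out had to lower the fold. Fhod3 shares 309 exon bases with Gm9955 on the other strand.

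**Figure D3:**
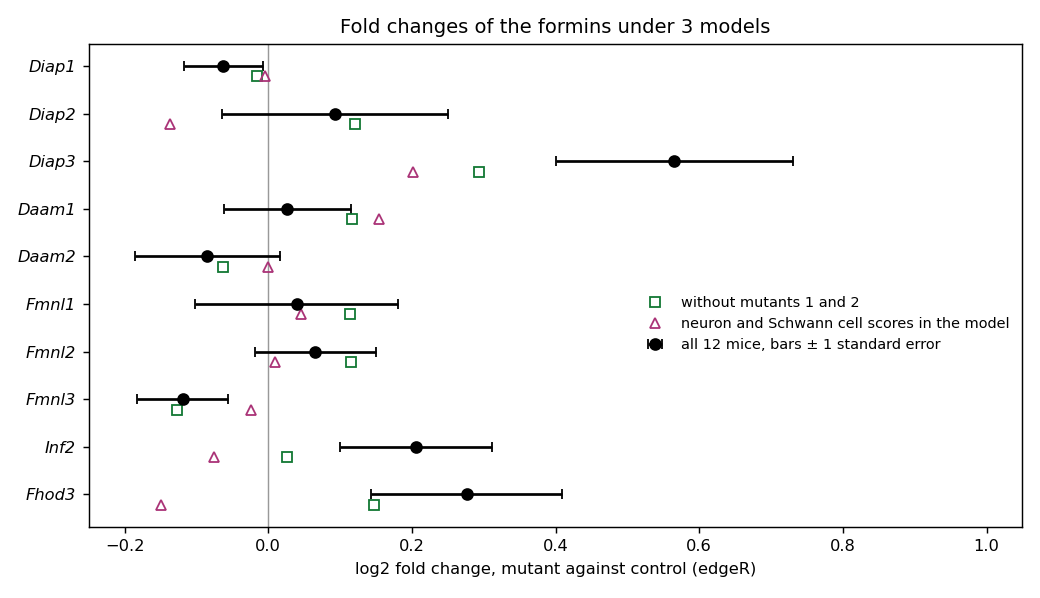
Log2 fold change of each formin in edgeR; black points use all 12 mice with bars of 1 SE, green squares leave out mutants 1 and 2, and purple triangles have the neuron and Schwann cell scores in the model. Diap3 falls from 0.57 to 0.29 and 0.20, and Inf2 from 0.21 to 0.026 and -0.076. Mutants 1 and 2 are the highest libraries for both genes, so that leaving them out had to lower these folds. The scores were higher in mutants, so that the model with them separates them poorly from the genotype.

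Markers of other cell types differed between the genotypes beside these formins. The Schwann cell score, the mean log2 CPM of 10 markers, was higher in mutants by 1.66 (exact permutation test, two-sided, adjusted over 9 lists, p = 0.026). The summed level of these markers ran from 110 to 921 CPM in controls and from 704 to 4701 CPM in mutants, and no marker was at 0 in all libraries. The neuron score was higher by 1.65 (exact permutation, adjusted p = 0.026), with summed levels of 175 to 292 CPM in controls and 200 to 1394 CPM in mutants. The supporting cell score was lower by 0.16 (exact permutation, adjusted p = 0.0195), and the macrophage score was lower by 0.24 (exact permutation, adjusted p = 0.0438), a call that was lost with the median of the markers in place of the mean (exact permutation, adjusted p = 0.312). The hair cell score (difference -0.027, exact permutation, adjusted p = 0.872) and the score of dividing cells (0.013, adjusted p = 0.872 by the same exact test) did not pass. Mutants 1 and 2, which had the highest Diap3 and Inf2, also had the highest Schwann cell scores, 6.91 and 6.84, against 4.73 to 5.71 in the other 4 mutants. They had the lowest hair cell scores as well, 3.49 and 3.68. The part of these cell types in the formin values was not tested.

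**Figure D4:**
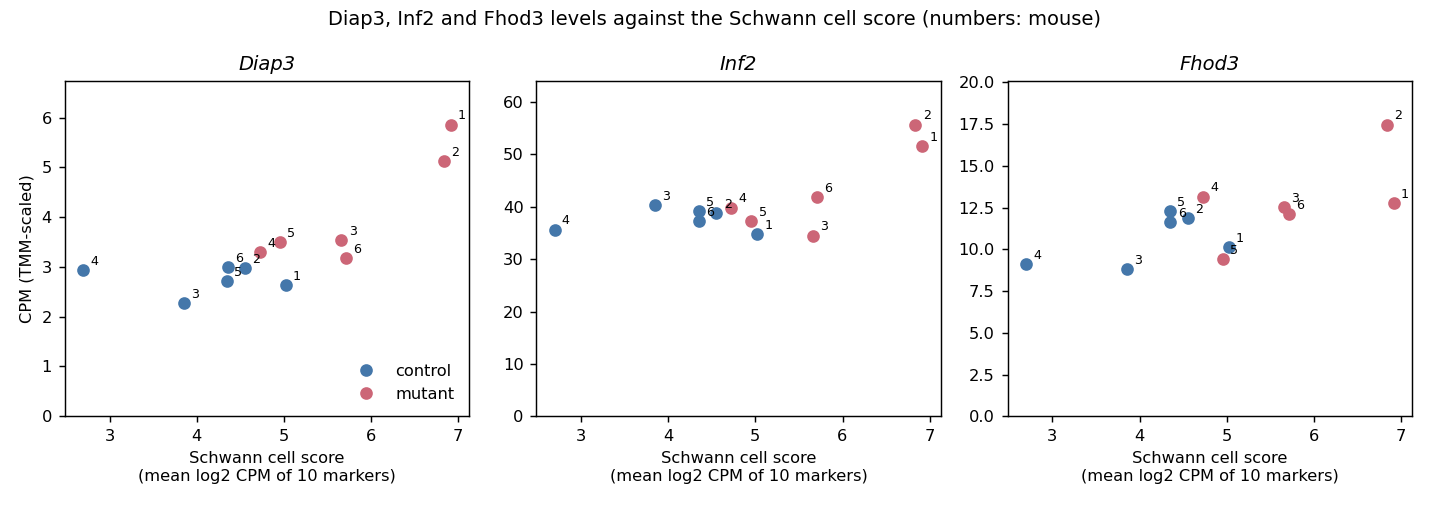
CPM of Diap3, Inf2 and Fhod3 in each of the 12 libraries against the Schwann cell score, with the mouse number beside each point and the y axes from 0. Mutants 1 and 2 lie to the right of all other libraries and hold the highest Diap3 and Inf2, whereas Fhod3 is highest in mutant 2 only.

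To see what the formins varied with inside a genotype, the deviations of each library from its genotype mean were correlated between each formin and the 9 marker scores and Xist, 100 relations in all over 12 libraries. None had an adjusted p under 0.05 by Pearson's r or by Spearman's rank correlation (rS). The strongest was between Diap3 and the hair cell score (r = -0.80, permutation p = 0.00109, adjusted p = 0.109, and rS = -0.67, permutation p = 0.02025, adjusted p = 0.367). Without mutants 1 and 4, the libraries farthest from the median score, r was -0.68. Against the Schwann cell score r was 0.60 for Diap3, Inf2 and Fhod3 alike (permutation p = 0.0394, 0.0387 and 0.0407, adjusted p = 0.274 each), with rS of 0.65, 0.55 and 0.57 (permutation p = 0.0257, 0.071 and 0.0561, adjusted p = 0.367, 0.592 and 0.561). Without control 4 and mutant 4 these values of r were 0.80, 0.66 and 0.70. Other scores gave an r of like size. Inf2 had r = -0.63 with the hair cell score and -0.61 with the supporting cell score (permutation p = 0.0306 and 0.0351, adjusted p = 0.274 each). Diap3 had r = -0.59 with the supporting cell score (permutation p = 0.0439, adjusted p = 0.274), and -0.28 without control 4 and mutant 1. Fhod3 had r = -0.23 with the hair cell score and 0.081 with the supporting cell score. Within the genotypes, r between Diap3 and the Schwann cell score was -0.058 over the 6 controls and 0.88 over the 6 mutants. With the supporting cell score it was 0.19 in controls and -0.96 in mutants, and with the hair cell score -0.46 and -0.85. A strong r over the mutants was therefore not particular to the Schwann cell score. These values over 6 libraries were not tested. Fmnl3 gave r = 0.77 with the score of dividing cells (permutation p = 0.00481, adjusted p = 0.171, and rS = 0.45, permutation p = 0.141, adjusted p = 0.642), which was 0.13 without control 1 and mutant 4 and so rested on those 2 libraries. With Xist, high in controls 1 and 3 and mutants 3 and 4, Diap3 had r = -0.49 (permutation p = 0.109, adjusted p = 0.435, and rS = -0.17, permutation p = 0.604, adjusted p = 0.911). Among the libraries with high Xist, Diap3 was 2.27 to 2.64 CPM in 2 controls and 3.30 to 3.53 CPM in 2 mutants, and among the others it was 2.72 to 2.99 CPM in 4 controls and 3.17 to 5.85 CPM in 4 mutants. Since all 6 mutants lay above all 6 controls, the subsets could not overlap under any split.

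**Figure D5:**
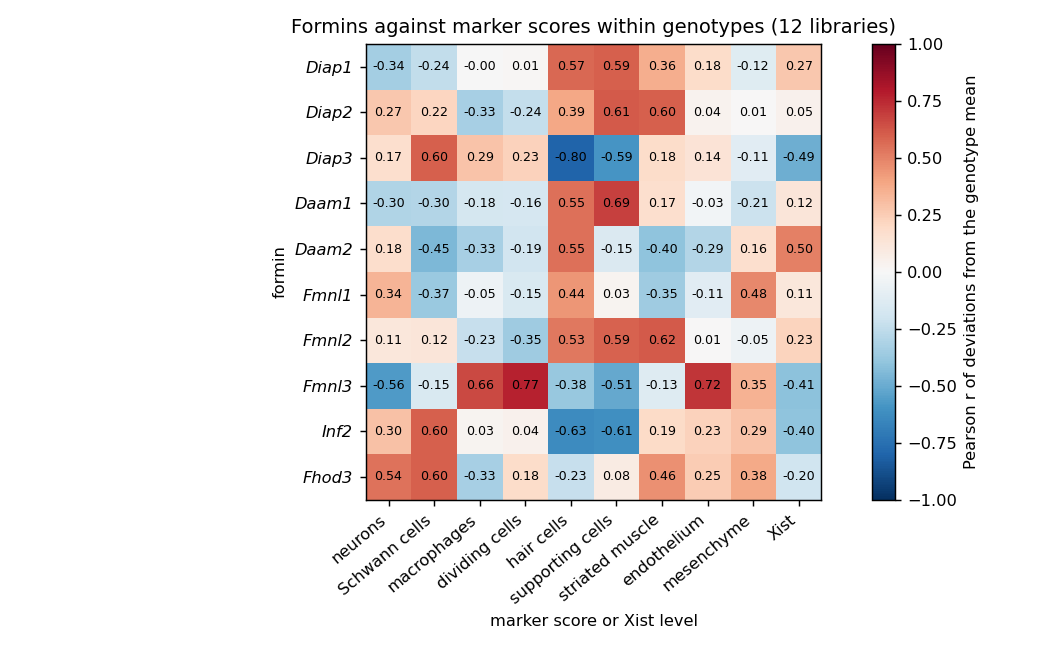
Pearson r between the deviations of each formin (rows) and of each marker score or Xist (columns) from the genotype means, over 12 libraries; red is positive and blue negative on a scale from -1 to 1. The deepest blue cell is Diap3 with hair cells at -0.80, and no cell passed the test after adjustment over the 100 relations.

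Some formins varied together inside a genotype. Of 45 pairs, 4 had an adjusted p under 0.05 by Pearson's r and 2 of these also by Spearman's rank correlation. The share of other gene pairs that would pass was not computed, so the count is not shown to be particular to formins. The most alike genes outside the family reached r of 0.96 with Diap1 and Daam1 and 0.98 with Diap2 and Fmnl2. Diap2 and Fmnl2 had the highest r, 0.89 (permutation p = 0.00022, adjusted p = 0.0099, and rS = 0.89, permutation p = 0.00031, adjusted p = 0.0140), and r was 0.88 without the 2 libraries farthest from the median of Diap2. Diap1 and Daam1 had r = 0.86 (permutation p = 0.00084, adjusted p = 0.0189, and rS = 0.85, permutation p = 0.00099, adjusted p = 0.0223), and r was 0.77 without the 2 libraries farthest from the median of Diap1. Fmnl2 had r = 0.80 with Diap1 (permutation p = 0.00133, adjusted p = 0.01995, and rS = 0.69, permutation p = 0.017, adjusted p = 0.191) and r = 0.75 with Daam1 (permutation p = 0.00384, adjusted p = 0.0432, and rS = 0.73, permutation p = 0.00909, adjusted p = 0.136). Without the 2 farthest libraries the r of Fmnl2 was 0.79 with Diap1 and 0.82 with Daam1. The permutations exchanged libraries across the genotypes, whose spreads differed for Diap1 and Daam1, so that these p-values may be too small. Diap3 and Inf2 had r = 0.70 (permutation p = 0.0122, adjusted p = 0.0914, and rS = 0.50, permutation p = 0.105, adjusted p = 0.446), which was 0.21 without the 2 libraries farthest from the median. The other pairs among Diap1, Diap2, Daam1 and Fmnl2 did not pass, namely Diap2 with Daam1 (r = 0.68, permutation adjusted p = 0.0914, and 0.33 without the 2 farthest libraries) and Diap1 with Diap2 (r = 0.63, permutation adjusted p = 0.135, and 0.47). These 4 genes share the same 12 libraries, and mutant 1 held the lowest value of all 12 for each of them, as it did for Daam2, while it held the highest for Diap3. Each also had a positive r of 0.59 to 0.69 with the supporting cell score, none past the threshold (permutation, adjusted p between 0.171 and 0.274), and between 0.11 and 0.34 without control 4 and mutant 1, on which the relation rested. The r of these 4 genes with the log2 total count lay between -0.067 and 0.29 (permutation, adjusted p = 0.963), and between 0.29 and 0.64 without the 2 libraries farthest from the median count. With the TMM factor it lay between -0.33 and -0.22 (permutation, adjusted p = 0.963), and between -0.62 and -0.40 without the 2 farthest libraries. The part of depth and scaling in these relations was not tested.

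The genes whose deviations were most like those of a formin were sought among the 14192 genes that averaged 50 or more counts. For Diap1 they were Cep68, Capn6 and Cep57l1 (r = 0.96 each), and for Diap2 they were Wdr26, Tab3 and D15Ertd621e (r between 0.97 and 0.98). For Diap3 they were Ttyh2 (r = 0.91), Gal3st1 (0.90) and Zfp511 (0.89). Daam1 was most like Utp15, Eya1 and Epha3 (r between 0.93 and 0.96) and Daam2 most like Dlg4, Gli2 and Klhl29 (0.92 to 0.94). Among the Fmnl genes, Fmnl1 was most like Gprc5c, Trim46 and Gm26549 (r between 0.83 and 0.85), Fmnl2 like Ero1l, Prkci and Ncoa4 (0.97 to 0.98), and Fmnl3 like Cars2, Ddx47 and Noc2l (0.90 to 0.93). Inf2 was most like Wnk2, Pxn and Ttll6 (r between 0.94 and 0.97), and Fhod3 like Galnt6, Ass1 and Mcam (0.91 to 0.93). None of these 30 genes had an edgeR adjusted p under 0.05. The values of r are the highest of many and are given as a description.

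Of the other formins, Fmn1 averaged 110 CPM in controls (SD 15.4) and 107 CPM in mutants (SD 17.5). Fhod1 lay between 28.5 and 34.2 CPM in controls and between 28.4 and 31.6 CPM in mutants. Fmn2 lay between 10.3 and 17.6 CPM in controls and between 12.2 and 20.5 CPM in mutants, and Grid2ip between 1.31 and 3.82 and between 1.13 and 4.61 CPM. None of these 4 passed the test, at edgeR adjusted p between 0.725 and 0.999. Fhdc1, a formin that the list had left out and that was looked up after its value was seen, lay between 12.7 and 15.3 CPM (median 14.7) in controls and between 15.4 and 18.1 CPM (median 17.1) in mutants. As for Diap3, its genotypes did not overlap (log2 fold change 0.22, SE 0.071, edgeR adjusted p = 0.184). The groups nearly touched, at 15.3 CPM in the highest control and 15.4 CPM in the lowest mutant.

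Genes that act with formins were described by lists, and edgeR called no gene of the lists given here at an adjusted p under 0.05, against 0.190% of all genes. Of 18 partners and inhibitors, such as the profilins that hand actin to formins, 0 were past an unadjusted p under 0.05 by edgeR in either direction. Of all genes, 6.52% were higher and 4.04% lower at that level, so that few were to be met in a list of this size. The smallest edgeR p belonged to Pfn2 (log2 fold change 0.16, adjusted p = 0.479), Cap1 (-0.099, adjusted p = 0.703) and Cap2 (-0.48, adjusted p = 0.703). Of 18 genes of the Arp2/3 complex and its activators, 0 were higher and 1 was lower at an unadjusted p under 0.05 by edgeR, against 6.52% and 4.04% of all genes. That gene was Was, the activator of blood cells (log2 fold change -0.34, adjusted p = 0.359). Wasf2 (-0.096, adjusted p = 0.724) and Cttn (-0.079, adjusted p = 0.737) followed.

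Of 16 genes that act on filament ends or turnover, 2 were higher and 1 lower at an unadjusted p under 0.05 by edgeR, against 6.52% and 4.04% of all genes, and DESeq2 called the same 3 genes, against 3.35% of all genes. Capza1, a subunit of the capping protein that competes with formins for filament ends, averaged 24.5 CPM in controls and 37.5 CPM in mutants (log2 fold change 0.61, SE 0.15, edgeR adjusted p = 0.092, DESeq2 adjusted p = 0.00458). Tmod2, a pointed-end capper of neurons, was at 32.1 and 61.3 CPM (0.93, SE 0.25, edgeR adjusted p = 0.129, DESeq2 adjusted p = 0.00451). A relation of Tmod2 to the higher neuron score was not tested. Vasp, a filament elongator, was at 85.0 and 75.2 CPM (-0.18, SE 0.048, edgeR adjusted p = 0.120, DESeq2 adjusted p = 0.00494). By using up actin monomers, formins can free the SRF coactivators. Of 15 tested genes of SRF and its targets, 0 were higher and 4 lower at an unadjusted p under 0.05 by edgeR, against 6.52% and 4.04% of all genes. The 4 were Actg1 (log2 fold change -0.16, adjusted p = 0.330), Cnn2 (-0.24, adjusted p = 0.333), Srf (-0.15, adjusted p = 0.422) and its coactivator Mkl1 (-0.12, adjusted p = 0.464), the last named beyond the rule of 3 genes a list. Over these 15 genes the log2 fold change had a median of -0.12, and a relation of these genes to the formin levels was not tested. The medians were -0.032 for the partners, -0.0024 for the Arp2/3 list, -0.038 for the filament end list and -0.023 for the 4 other formins, against 0.0029 for all genes tested.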

How the data were processed

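The authors deposited raw counts of reads per gene symbol, 1 column per library, neither normalized nor pooled. Per the labels, reads were trimmed with Trimmomatic 0.32, aligned with STAR 2.4.2a to GRCm38.p4 and counted with HTSeq 0.9.1. The annotation and strand setting are not given in the sources used here. The deposited table of the authors' own DESeq2 comparison (fold changes and p-values) was not used.

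Genes that averaged 5 or more counts were compared with edgeR 4.0.16 in R 4.3.3 (quasi-likelihood F-test, TMM, robust, no covariates), adjusted by the Benjamini-Hochberg method over 18459 genes. The code was also run on simulated counts with log2 changes of 1 in either direction, drawn independently for each gene. These changes exceed the fold of every formin here, so that the run does not show how well such smaller folds are found. Each SE was obtained as the estimate over the root of its F statistic. For single values, log2(CPM + 0.1) entered an exact permutation test, two-sided, over 924 divisions of the mice. Correlations were tested by 100000 permutations of the deviations over all 12 libraries. These did not allow for the subtracted genotype means, so that their p-values are approximate. Scores are means of log2 CPM with a prior count of 2. DESeq2 1.42.0 served as an alternative. Groups and replicate numbers were taken from the labels. Positions and lengths come from GENCODE M21 and promoters from RefSeq, both on GRCm38, whose patch releases share coordinates, and only the 250 bases before each start were searched. The members, lists and tests were chosen with earlier results of these data known. The results of 1 list are not reported here. The genes named are the 10 formins, Jag1, the 3 genes of each list with the smallest p, the 3 genes most like each formin, and those said to be chosen later. The alternatives were DESeq2, RLE scaling, all genes unfiltered, a minimum average of 20 counts, the replicate number as a block, marker scores or Xist as covariates and leaving out each mouse. Leaving out mutants 1 and 2 together and the length of merged exons were added after the data were seen. The libraries are separate mice, and within a genotype they differed by a chi-square per degree of freedom of 13.4 to 70.6, so that none was entered more than once and the spread between mice exceeds the counting error.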

Additional observations from a re-analysis of the deposited data

Results flagged for a closer look

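Of the 20 groups of 6 libraries formed by 10 formins and 2 genotypes, 2 held a library whose gap to its nearest neighbour took up more of the range than Dixon's critical value allows, and chance flags about 1 in 20 groups. Fmnl2 in mutant 1 was at 140 CPM, far below the other mutants. Fmnl3 in control 1 was at 72.3 CPM, far below the other controls.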

How the results depend on the processing

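The spread between mice limited most comparisons, and Diap3, with the fewest reads, was the least precise in counting. edgeR called 35 genes over all 12 mice, and 619 by DESeq2, 57 with no filter, 131 with the replicate block, 1 with the scores of neurons and Schwann cells as covariates, 23 with Xist as a covariate, and between 14 and 356 with 1 mouse left out, the highest without mutant 5. The number of formins called was 0 in all of these except DESeq2, where it was 1, Diap3 (log2 fold change 0.56, adjusted p = 0.0497). The number of formins at an unadjusted p under 0.05 was 1, and it was 2 with no filter (Diap3 and Fhod3), 0 with the marker scores as covariates and between 1 and 3 with 1 mouse left out, Diap3 each time and Fmnl3, Inf2 or Fhod3 in some. With 1 mouse left out, the log2 fold change of Diap3 lay between 0.43 and 0.63 (edgeR adjusted p between 0.116 and 0.307). That of Inf2 then lay between 0.12 and 0.26 and that of Fhod3 between 0.17 and 0.35. Those of Daam1 (-0.037 to 0.096) and Fmnl1 (-0.066 to 0.094) changed sign. With the marker scores as covariates the sign turned for Diap2 (-0.14), Daam2 (7.4e-05), Inf2 (-0.076) and Fhod3 (-0.15), all at an adjusted p of 1; the cause was not tested. The macrophage score was lower by 0.20 with the median of the markers in place of the mean (exact permutation, adjusted p = 0.312). DESeq2 called 3 genes of the filament end list; 1 was called by edgeR without mutant 1, and 1 without mutants 1 and 2. The deviations of same-numbered mice had r between -0.19 and 0.27 over 6 pairs, 2 of which were best matched by number. Under the replicate block Diap3 had a log2 fold change of 0.53 (adjusted p = 0.243), and no formin was called. The replicate numbers are not stated to be litters, so that this block cannot be taken to allow for litter. A pseudocount of 1 and a prior count of 0.5 changed no call.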
